A study of Homo sapiens with 4 samples.

Results

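MT-TF, MT-TV and MT-TL1 are the mitochondrial genes of the phenylalanine, valine and leucine (UUR) tRNAs, which flank the 2 rRNA genes of the human mitochondrial genome. They were taken by their positions in the heavy-strand data, and are 3 of 37 mitochondrial genes and 3 of the 14 tRNAs read from that strand. On chromosome MT, in the numbering of the deposited files, the 71 bases of MT-TF lie between the flanking bases 576 and 648, the 69 bases of MT-TV between 1601 and 1671, and the 75 bases of MT-TL1 between 3228 and 3304. The study purified mitochondria of HEK-293T, a human embryonic kidney line that the cell line tag names without the T, and treated them with 1% dimethyl sulfate (DMS) for 5 min at 37 °C. DMS methylates adenine and cytosine where their pairing faces are free, and the TGIRT-III reverse transcriptase leaves a mismatch at the methylated base. Both groups were DMS-treated: 2 wild-type libraries and 2 libraries from mitochondria knocked out for LRPPRC, a protein that binds mitochondrial mRNAs, described as biological replicates. No untreated library was analysed here, and the labels used here do not say how the knockout line was made or whether it is 1 clone.

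The heavy strand of the human mitochondrial genome is transcribed as a long precursor in which tRNAs stand between the rRNAs and most mRNAs. Cleavage at the tRNA ends by RNase P and ELAC2 releases most of these RNAs. MT-TF precedes the small rRNA (RNR1), MT-TV lies between the small and the large rRNA (RNR2), and MT-TL1 follows the large rRNA and precedes ND1, an mRNA of respiratory complex I. Mature tRNA-Val is also built into the large subunit of the human mitochondrial ribosome as a structural RNA. Most mitochondrial tRNAs fold into a cloverleaf of acceptor, D, anticodon and T arms. Mitochondrial tRNAs also carry base modifications that themselves stop or miscode a reverse transcriptase. Among these are the methylated purine at position 9, made by the TRMT10C complex, 1-methyladenosine at position 58 of tRNA-Leu (UUR), and a hypermodified adenine beside the anticodon at position 37 of tRNA-Phe.

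The tRNA sequences are shown 5′ to 3′ as the base column of the heavy-strand data gives them, because every comparison below places a mismatch fraction on one of their bases. Capitals mark the anticodon and the natively modified sites.
MT-TF: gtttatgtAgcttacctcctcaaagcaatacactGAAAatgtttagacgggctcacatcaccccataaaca
MT-TV: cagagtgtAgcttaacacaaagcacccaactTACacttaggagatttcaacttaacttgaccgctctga
MT-TL1: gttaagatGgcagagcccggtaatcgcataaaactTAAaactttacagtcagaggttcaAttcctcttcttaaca
The anticodon arm of MT-TL1, positions 3257 to 3273, carries the base that changed most in the 3 tRNAs without centring. In the line below, the capitals mark its 2 highest bases in wild type, at positions 34 and 40 of the tRNA.
MT-TL1 anticodon arm: taaaaCttaaaActtta

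Positions within a tRNA are counted from its first base, and the standard tRNA number is added where the 2 differ. On the cloverleaf, 18 of 21 stem pairs were complementary in MT-TF, and 19 of 21 in MT-TV and in MT-TL1. The 3 tRNAs hold 125 A or C bases, and 121 of them (41, 40 and 40) were tested: A or C, natively modified sites apart, with a mean mismatch fraction from 0.002 to 0.3. The other 4 are natively modified adenines, and no A or C of these tRNAs fell outside the limits or read 0 in a library. The files give fractions without read counts, so the depth behind each value is unknown. Changes are differences of log2(fraction + 0.001), knockout minus wild type, which understate the change at low bases. The library median over all tested heavy-strand positions was lower by 0.63 in the knockout on this scale. The scale of each change, centred on the library median or without centring, is therefore stated beside it. The median of the changes at single heavy-strand positions was -0.50 without centring and 0.13 after it. Replicates of these tRNAs differed by a median of 0.12 (wild type) and 0.08 (knockout) on the log2 scale, against 0.04 and 0.06 over all 9898 tested positions. Errors are SD over 2 libraries, and an SE is limma's. The exact permutation test has 0.333 as its smallest p with 2 libraries in each group.

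**Figure D1:**
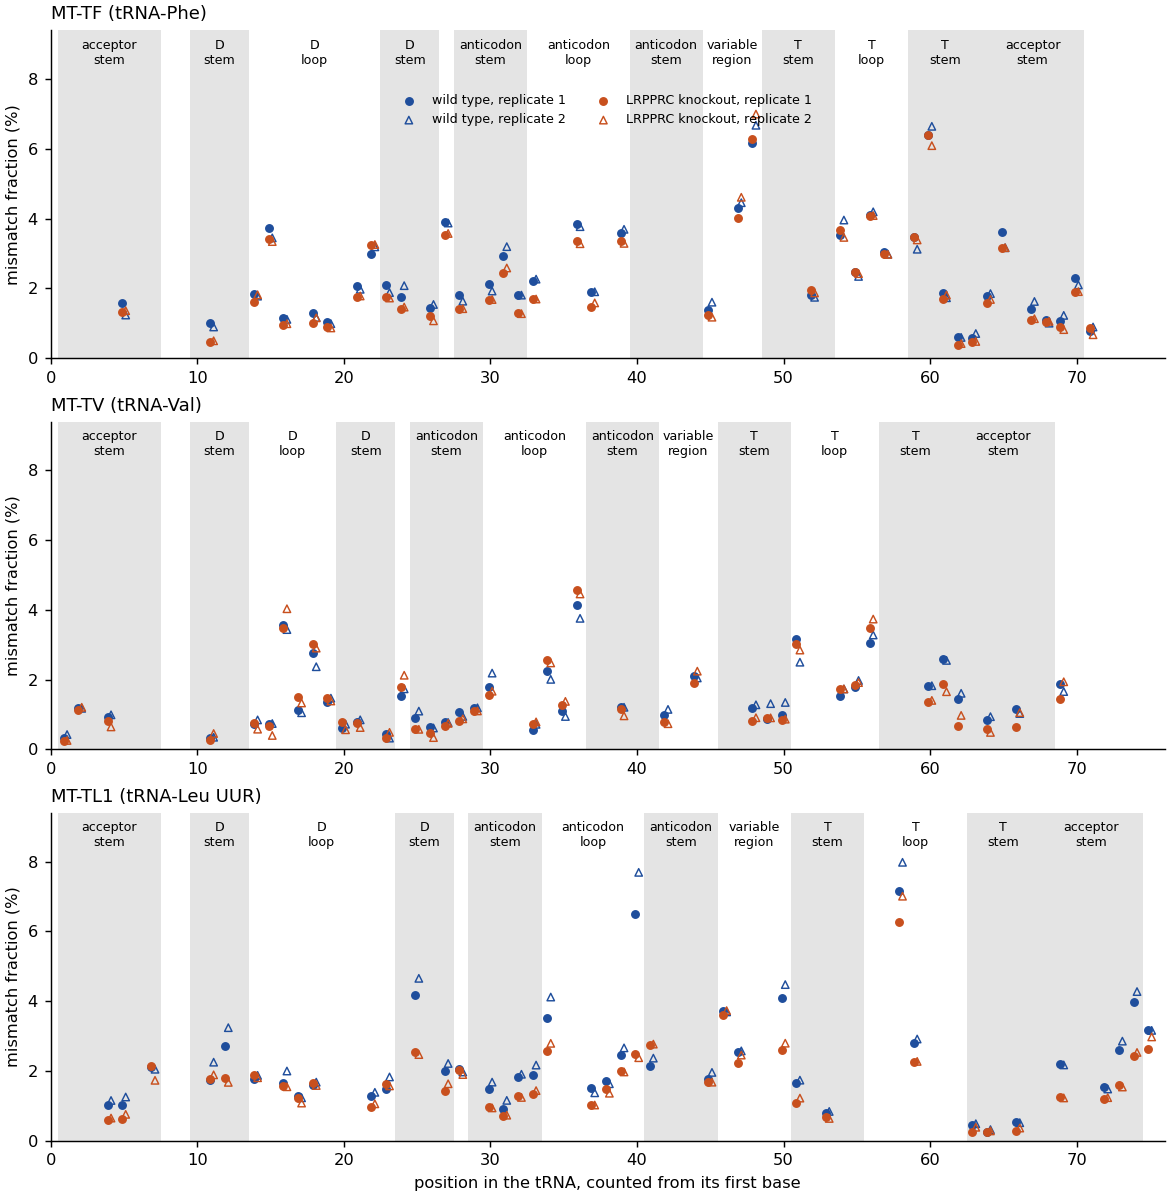
Mismatch fraction (%, linear axis from 0) at each tested A or C base of MT-TF, MT-TV and MT-TL1, by position from the first base, with 1 point per library and the stems of the cloverleaf shaded. MT-TL1 position 40, in the anticodon loop, reads 6.49% and 7.69% in wild type against 2.48% and 2.38% in the knockout.

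In wild type, MT-TF and MT-TL1 had the highest mean mismatch fractions of the 14 heavy-strand tRNAs, and MT-TV was the sixth. The mean over tested bases of MT-TF was 2.39% and 2.39% in wild type against 2.17% and 2.19% in the knockout. MT-TL1 read 2.23% and 2.42% in wild type against 1.72% and 1.76% in the knockout. MT-TV read 1.44% and 1.46% in wild type against 1.36% and 1.396% in the knockout. In each of the 3 tRNAs both knockout libraries lay below both wild-type libraries, by least in MT-TV. The wild-type means of MT-TF (2.39% ± 0.00136, n = 2) and MT-TL1 (2.33% ± 0.139, n = 2) differed by less than the spread of MT-TL1, whereas in the knockout MT-TF (2.18% ± 0.0187) stood above MT-TL1 (1.74% ± 0.0285). Their other neighbour in this order, MT-TM (methionine tRNA), had 2.09% ± 0.169 in wild type against 1.67% ± 0.0441 in the knockout. MT-TV (1.45% ± 0.0126 in wild type) lay within the spread of MT-TD, the aspartate tRNA, at 1.46% ± 0.202. The other 11 heavy-strand tRNAs ran from 0.50% (MT-TG, glycine) to 2.09% in wild type, with a median of 1.16%.

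**Figure D2:**
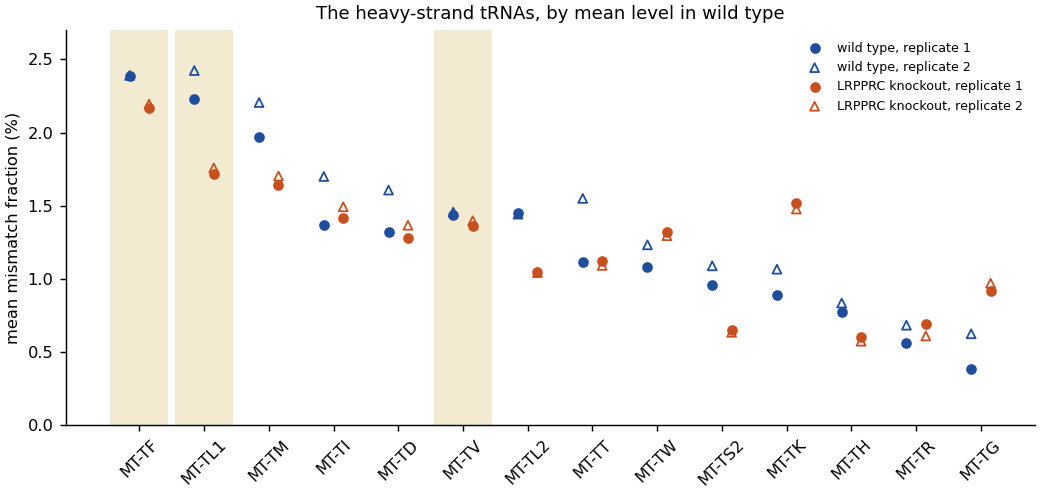
Mean mismatch fraction (%, linear axis from 0) over the tested A and C bases of each of the 14 heavy-strand tRNAs, 1 point per library, ordered by the wild-type mean; MT-TF, MT-TL1 and MT-TV are shaded. MT-TF and MT-TL1 are the first and the second in both groups, and MT-TV is the sixth.

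The direction of the change in these means depended on the scale: the 3 tRNAs fell without centring and rose relative to the library median. Without centring, the mean log2 value changed by -0.18 in MT-TF (SE 0.0275, adjusted p = 0.000749), -0.15 in MT-TV (SE 0.0540, adjusted p = 0.0446) and -0.38 in MT-TL1 (SE 0.0475, adjusted p = 0.000272; limma over 37 genes, Benjamini-Hochberg). After centring, the changes were 0.45 (SE 0.0128, adjusted p = 0.000229), 0.48 (SE 0.0476, adjusted p = 0.00205) and 0.25 (SE 0.0484, adjusted p = 0.0144) in the same fit and order. The 3 tRNAs thus fell by less than the median heavy-strand position did. All 37 genes give the background: 86.5% were called after centring and 62.2% were called higher, and without centring 73.0% were called and 64.9% were called lower. A call in these 3 genes is therefore near the background of all genes. The 37 genes include light-strand genes, centred on their own library median, which was higher by 0.54 in the knockout. The centred share called higher thus mixes the strands. The centred call of MT-TL1 was lost without knockout replicate 1 (0.27, adjusted p = 0.0774, limma) and without knockout replicate 2 (0.23, adjusted p = 0.104, limma), with the lone knockout library assumed to vary as the wild-type pair did. Among the other 11 heavy-strand tRNAs, 3 were lower and 2 higher without centring and 9 were higher after centring, with changes from -0.58 (MT-TS2, serine) to 0.86 (MT-TG) without centring. MT-TL1 fell more than the mean of MT-TF and MT-TV: its log2 mean stood above theirs by 0.26 ± 0.062 in wild type against 0.04 ± 0.014 in the knockout. The difference of -0.22 exceeded the spread of the libraries, with an exact permutation p of 0.333, the smallest possible.

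Base by base, a smaller share of these tRNA positions was called without centring than of all heavy-strand positions. Without centring, 58 of the 121 tested bases (47.9%) passed the test (limma, adjusted p under 0.05), against 83.0% of all 9898 heavy-strand positions. Of the 121 tested bases, 52 were called lower in the knockout and 6 higher, against 78.3% and 4.71% of all 9898 positions. MT-TF had 19 called bases, all lower; MT-TV had 14, of which 9 were lower and 5 higher; and MT-TL1 had 25, of which 24 were lower and 1 higher. The median change over the tested bases was -0.17 in MT-TF, -0.12 in MT-TV and -0.37 in MT-TL1, against -0.50 over all tested positions. After centring, 81 of 121 bases (66.9%) were called, near the background of 71.5%. Of the 121, 80 were called higher relative to the library median and 1 lower, against 44.9% and 26.6% of all 9898 positions. The median centred change was 0.44 over the 121 bases, against 0.13 over all tested positions. By tRNA the centred calls were 35 in MT-TF, 25 in MT-TV and 21 in MT-TL1. Wild-type and knockout libraries did not overlap at 87 of the 121 bases (29, 26 and 32), against 92.1% of all positions. The wider replicate spread of these tRNAs, given above, lies beside these lower shares, and its part in them was not tested.

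The gap between loops and stems was wider in the knockout libraries in all 3 tRNAs. The contrast taken within each library, the mean log2 value of bases outside complementary stem pairs minus that of paired bases, needs no scaling between libraries. In MT-TV (22 unpaired or mismatched and 18 paired bases) it was 0.84 and 0.77 in wild type against 1.16 and 1.09 in the knockout. In MT-TF (23 and 18 bases) it was 0.67 and 0.69 in wild type against 0.88 and 0.86 in the knockout. In MT-TL1 (22 and 18 bases) it was 0.87 and 0.84 in wild type against 1.01 and 0.96 in the knockout. Both knockout libraries lay above both wild-type libraries in each tRNA. The mean contrast rose by 0.32 in MT-TV, 0.19 in MT-TF and 0.13 in MT-TL1, each more than the SD of either group (at most 0.054) and each with an exact permutation p of 0.333, the smallest possible. The size depended on the pseudocount: with 0.01 in place of 0.001 the rises were 0.17, 0.10 and 0.03 in the same order.

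**Figure D3:**
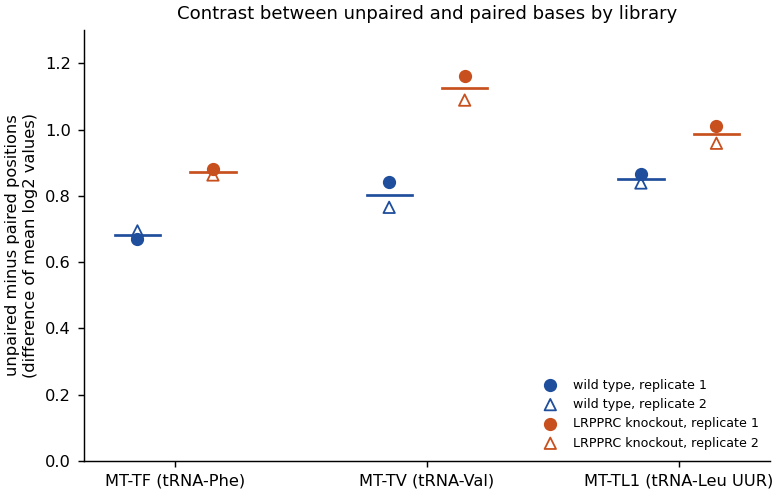
Difference of mean log2 values between bases outside complementary stem pairs and paired bases in each library (linear axis from 0), with 1 point per library and lines at the group means. In each tRNA the 2 knockout libraries lie above the 2 wild-type libraries, by a mean of 0.32 in MT-TV.

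In percent, the 18 paired bases of MT-TV went from 0.967% ± 0.0512 to 0.747% ± 0.0248 (n = 2 libraries each), while its 19 loop and junction bases went from 1.89% ± 0.0195 to 2.01% ± 0.0397. In MT-TF the 18 paired bases went from 1.70% ± 0.0260 to 1.41% ± 0.0158 and the 20 loop and junction bases from 2.79% ± 0.0315 to 2.62% ± 0.0404. In MT-TL1 the paired bases went from 1.62% ± 0.0960 to 1.14% ± 0.0157, and the 18 loop and junction bases from 2.90% ± 0.154 to 2.26% ± 0.0506. Loops were thus higher in MT-TV and lower in MT-TF and MT-TL1, and paired bases were lower in all 3. Without centring, 78.3% of all tested heavy-strand positions were called lower and 4.71% higher. Beside that background, the calls in paired bases were lower in 12 of 18 in MT-TF, 7 of 18 in MT-TV and 13 of 18 in MT-TL1. Among the remaining bases 7 of 23 were called lower in MT-TF, 2 of 22 lower and 5 of 22 higher in MT-TV, and 11 of 22 lower and 1 of 22 higher in MT-TL1.

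**Figure D4:**
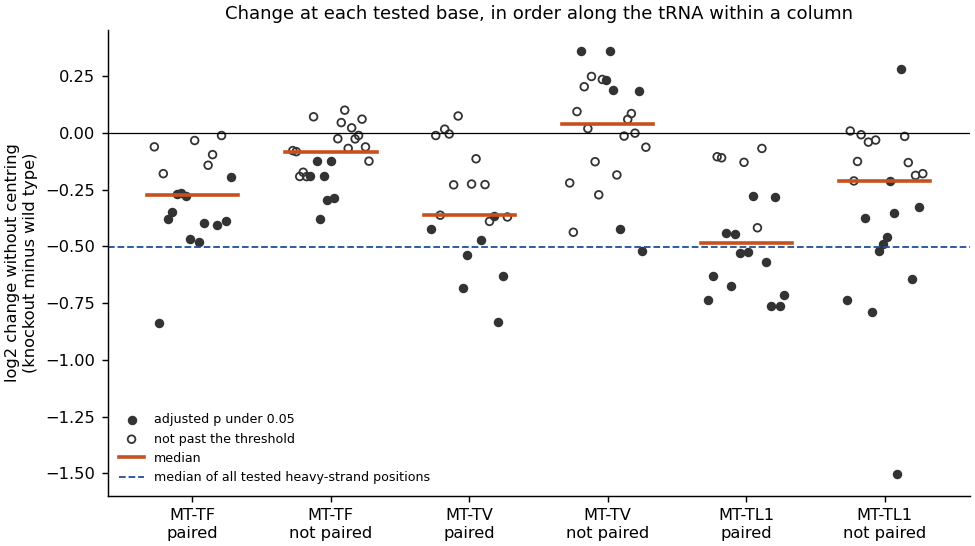
Log2 change without centring (knockout minus wild type) of each tested base, split by pairing in the cloverleaf; filled points passed the test, bars are medians, and the dashed line at -0.50 is the median of all tested heavy-strand positions. The medians of paired bases are -0.27, -0.36 and -0.48 in MT-TF, MT-TV and MT-TL1, below those of the other bases at -0.08, 0.04 and -0.21.

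In MT-TF, the anticodon arm and the D stem held 11 of the 19 bases called lower without centring, and the T loop differed little in level. The 4 T-loop bases averaged 3.29% and 3.37% in wild type against 3.30% and 3.24% in the knockout, and their changes without centring missed the threshold (adjusted p from 0.337 to 0.704, limma). The 4 anticodon-stem bases averaged 2.17% and 2.14% in wild type against 1.69% and 1.74% in the knockout, and the 4 tested anticodon-loop bases 2.88% and 2.91% against 2.48% and 2.46%. All 8 of these anticodon-arm bases were called lower without centring, and the groups did not overlap in either mean. Of the 4 D-stem bases, 3 were called lower, from a mean of 1.58% ± 0.0196 to 1.20% ± 0.0202. On the same scale, 78.3% of all tested heavy-strand positions were called lower. After centring, the median changes were rises of 0.36 in the anticodon stem, 0.39 in the anticodon loop and 0.26 in the D stem. The highest base of MT-TF was an adenine at position 60 (chromosome MT, 636) in a mismatched pair of the T stem, at 6.40% and 6.65% in wild type against 6.40% and 6.09% in the knockout. The next were both in the variable region between the anticodon and T arms, a cytosine at position 48 (624), with 6.18% and 6.68% in wild type against 6.28% and 6.997% in the knockout, and an adenine at position 47 (623), with 4.31% and 4.46% against 4.01% and 4.61%. The groups overlapped at positions 48 and 47 and stood apart by under 0.01 percentage points at position 60, and the changes without centring, from -0.06 to 0.04, missed the threshold (limma). The largest centred rises in MT-TF were at a mismatched cytosine of the T stem, position 52 (628), with 1.80% and 1.75% against 1.94% and 1.87%, and at an adenine of the D loop, position 22 (598), with 2.99% and 3.19% against 3.24% and 3.26%. Their centred changes were 0.73 (SE 0.0469, adjusted p = 0.000413, limma) and 0.70 (SE 0.0405, adjusted p = 0.000344, limma). Without centring they were 0.10 and 0.07 and missed the threshold. At the anticodon, which pairs with phenylalanine codons, the guanine read 0.386% and 0.291% in wild type against 0.304% and 0.462% in the knockout. Its first adenine read 3.85% and 3.77% against 3.37% and 3.28%, and the second adenine 1.89% and 1.90% against 1.46% and 1.59%. Both adenines passed the test on both scales, downward without centring and upward after it, and the guanine, which DMS does not report here, overlapped between groups.

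In MT-TV, the 5 bases called higher without centring were all in loops, and 8 of the 9 called lower were in stems. Of all tested heavy-strand positions, 4.71% were called higher and 78.3% lower on that scale. The 5 tested anticodon-loop bases averaged 1.97% and 1.92% in wild type against 2.14% and 2.15% in the knockout, and 3 of them were called higher without centring. The 5 tested T-stem bases averaged 1.49% and 1.66% in wild type against 1.17% and 1.15% in the knockout, and 3 were called lower. The 6 acceptor-stem bases averaged 0.981% and 1.03% against 0.684% and 0.772%, again with 3 called lower. The groups stood apart in each of these 3 arms, upward in the loop and downward in the stems. The highest base of MT-TV was a cytosine of the anticodon loop, position 36 (chromosome MT, 1637), with 4.14% and 3.76% in wild type against 4.56% and 4.46% in the knockout. It rose on both scales, by 0.19 without centring (SE 0.0516, adjusted p = 0.0225, limma) and 0.82 after it (SE 0.0498, adjusted p = 0.000379, limma). The next highest were a cytosine of the D loop, position 16 (1617), with 3.58% and 3.44% against 3.48% and 4.03%, and a cytosine of the T loop, position 56 (1657), with 3.05% and 3.28% against 3.48% and 3.74%. Position 56 was called higher on both scales, and position 16 overlapped between groups. The largest rises were at an adenine of the D loop, position 17 (1618), with 1.12% and 1.05% in wild type against 1.51% and 1.33% in the knockout, and an adenine of the anticodon loop, position 35 (1636), with 1.10% and 0.945% against 1.29% and 1.38%. Each rose by 0.36 without centring (adjusted p = 0.0159 and 0.0212, limma) and by 0.99 after it. In the anticodon, which reads valine codons, the T read 0.625% and 0.349% in wild type against 0.708% and 0.584% in the knockout. Its adenine read 0.560% and 0.720% against 0.742% and 0.790%, and its cytosine 2.26% and 2.01% against 2.55% and 2.48%. The cytosine was called higher on both scales, and the adenine after centring alone.

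In MT-TL1, most tested bases of the acceptor stem, D stem, anticodon arm and T stem were called lower without centring. Over the whole tRNA 24 of 40 were, a smaller share than the 78.3% of all tested heavy-strand positions. The 7 acceptor-stem bases averaged 2.07% and 2.18% in wild type against 1.41% and 1.38% in the knockout, with 6 of 7 called lower without centring. The 4 D-stem bases averaged 2.66% and 3.09% against 1.89% and 1.92%, with 3 called lower, and the 5 anticodon-loop bases 3.13% and 3.495% against 1.91% and 1.91%, with all 5 called lower. The 6 anticodon-stem bases averaged 1.66% and 1.87% against 1.45% and 1.47%, with 4 called lower and 1 higher, and the 5 T-stem bases 0.734% and 0.779% against 0.511% and 0.578%, with 3 called lower. The 2 tested T-loop bases averaged 4.99% and 5.45% against 4.26% and 4.64%, with 1 called lower. The 6 D-loop bases averaged 1.51% and 1.67% against 1.48% and 1.44%, with 1 called lower. The groups did not overlap in any of these 7 means, and came closest in the D loop. Without centring, the base that changed most was the adenine at position 40 (chromosome MT, 3268), the last of the anticodon loop and number 38 in the standard scheme. It read 6.49% and 7.69% in wild type against 2.48% and 2.38% in the knockout. The wild-type libraries were both above the knockout ones by a wide margin, and the change was -1.504 without centring (SE 0.0847, adjusted p = 7.99e-05, limma) and -0.87 after it (SE 0.0872, adjusted p = 0.00119, limma). It was the 1 base of the 121 called lower on both scales, and with each library left out in turn its centred change stayed between -0.998 and -0.75. The base next to it, a cytosine at position 41 (3269) that faces an adenine in a mismatched stem pair, went the other way. It read 2.13% and 2.37% in wild type against 2.74% and 2.77% in the knockout, a rise of 0.28 without centring (adjusted p = 0.0077, limma) and 0.91 after it, and was the 1 base of MT-TL1 called higher without centring.

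The highest base of MT-TL1 was a cytosine of the T loop, position 58 (3286), with 7.17% and 7.98% in wild type against 6.27% and 7.01% in the knockout. Its groups did not overlap, and its change of -0.19 without centring missed the threshold (adjusted p = 0.0751, limma), whereas its centred change was a called rise of 0.44 (adjusted p = 0.00704, limma). A mismatched cytosine of the D stem, position 25 (3253), read 4.17% and 4.65% in wild type against 2.55% and 2.47% in the knockout. It fell by 0.79 without centring (adjusted p = 0.000194, limma), and its centred change of -0.16 missed the threshold (adjusted p = 0.0704, limma). Without wild-type replicate 1 the centred change was -0.24 and passed it (adjusted p = 0.0177, limma). At an adenine of the D loop, position 14 (3242), the values were 1.78% and 1.87% in wild type against 1.87% and 1.81% in the knockout, level without centring (0.01) and a centred rise of 0.64. The anticodon reads the UUR leucine codons. Its T had 0.726% and 0.707% in wild type against 1.06% and 1.03% in the knockout, its first adenine 1.503% and 1.37% against 1.01% and 1.02%, and its second adenine 1.70% and 1.63% against 1.495% and 1.36%. Both adenines were called lower without centring. Their centred changes were 0.17, which missed the threshold, and 0.42, which passed it (adjusted p = 0.0969 and 0.00521, limma). The T stood higher in both knockout libraries and was not in the fit.

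The sites taken here as natively modified were kept out of the means and counts above, because a mismatch there need not come from DMS. They were placed from general knowledge, and any other modified base stayed in. Position 9 of MT-TV (adenine, 1610) had the highest value of the 3 tRNAs, at 29.6% and 23.3% in wild type against 40.3% and 33.9% in the knockout. Position 9 of MT-TL1 (guanine, 3237), a base that DMS does not report, had 7.01% and 4.17% in wild type against 11.3% and 9.06% in the knockout. It was the only G or T of the 3 tRNAs with a mean above 5%. Position 9 of MT-TF (adenine, 585) went the other way, with 6.91% and 5.75% in wild type against 5.10% and 5.00% in the knockout. The groups did not overlap at any of these 3 sites, with an exact permutation p of 0.333 each. The differences in means were 10.6 percentage points in MT-TV, 4.61 in MT-TL1 and -1.28 in MT-TF. Among the other heavy-strand tRNAs, 8 have an adenine at position 9, with wild-type means from 0.389% (MT-TG) to 6.57% (MT-TW, tryptophan), so MT-TV lay above all 8. Of these 8 heavy-strand adenines, 3 were higher without overlap in the knockout and 1 was lower without overlap. Among light-strand adenines at position 9, the wild-type mean of MT-TN (asparagine, 40.2%) was above that of MT-TV. Those of MT-TE (glutamate, 20.5%), MT-TP (proline, 17.8%) and MT-TA (alanine, 8.72%) were below it. In the knockout these light-strand means were lower, unlike MT-TV, at 31.5%, 6.68%, 6.75% and 5.105% in the same order. The groups overlapped in MT-TN alone. The other heavy-strand tRNA with a guanine at position 9, MT-TI (isoleucine), went the other way from MT-TL1. It read 17.2% and 12.8% in wild type against 11.1% and 8.27% in the knockout, without overlap. The adenine of MT-TL1 at position 60 (3288; number 58 in the standard scheme) read 19.5% and 16.6% in wild type against 21.2% and 18.3% in the knockout, and the groups overlapped. The adenine of MT-TF at position 38 (614; number 37 in the standard scheme) read 4.02% and 3.61% in wild type against 3.18% and 3.30% in the knockout, without overlap. Replicate 1 was above replicate 2 in both groups at position 9 of all 3 tRNAs and at the second site of MT-TL1.

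**Figure D5:**
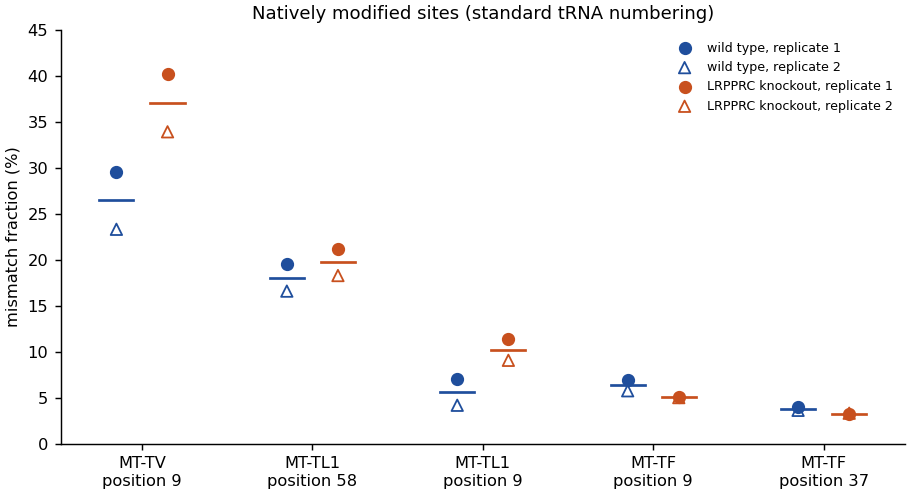
Mismatch fraction (%, linear axis from 0) at the natively modified sites of the 3 tRNAs, 1 point per library with lines at the group means; sites carry standard tRNA numbers. Position 9 was higher in the knockout in MT-TV and MT-TL1 and lower in MT-TF.

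Mature tRNAs and the same sequence inside an uncleaved precursor cannot be told apart in these fractions. The 5 bases on each side of each tRNA were read as well. They cannot decide this either, because many of them belong to the neighbouring rRNAs or ND1, whose mature RNA is read at the same positions. These bases are no members of the tRNAs, and those named here were chosen after their values were seen. Just after MT-TF, at the start of the small rRNA, the adenine at 649 read 1.06% and 0.890% in wild type against 2.34% and 2.57% in the knockout, and the adenine at 651 read 1.10% and 0.798% against 2.38% and 2.55%. Just before MT-TV, the last base of the small rRNA (cytosine, 1601) read 2.46% and 1.95% against 5.64% and 4.99%. All 3 rose without centring, by 1.25 (adjusted p = 0.000264), 1.31 (adjusted p = 0.000957) and 1.24 (adjusted p = 0.000574; limma), which was more than any tested base of the 3 tRNAs rose. Their centred changes were 1.88, 1.94 and 1.87. Beside MT-TV, the bases at 1599 (0.45) and 1672 (0.56) were also called higher without centring (limma). Called lower without centring were 575 (-0.32) and 576 (-0.26) before MT-TF, and 1597 (-0.42) and 1675 (-0.67) beside MT-TV (limma). After MT-TL1, the 4 A or C bases from 3304 to 3308 were lower in both knockout libraries, with changes from -0.37 to -0.28 without centring and from 0.26 to 0.35 after it.

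G and T bases, which give the background of the method, averaged 0.417% ± 0.0131 in MT-TF in wild type against 0.375% ± 0.0107 in the knockout (n = 2 libraries each). In MT-TV they averaged 0.307% ± 0.00404 and 0.319% ± 0.00566, and in MT-TL1 0.445% ± 0.00499 and 0.382% ± 0.0118. The mean at A and C was 5.60-fold and 5.86-fold that at G and T in the wild-type libraries of MT-TF and 5.91-fold and 5.74-fold in the knockout, which overlap (exact permutation p = 0.667). In MT-TV it was 4.72-fold and 4.69-fold against 4.33-fold and 4.33-fold, and in MT-TL1 5.05-fold and 5.41-fold against 4.60-fold and 4.50-fold. The groups stood apart in these last 2, with the knockout lower (exact permutation p = 0.333 each). The light-strand data of the same stretches also carried signal: on bases opposite a tested A or C, the slope of the light-strand fraction on the heavy-strand fraction was 70.4% ± 10.2 in MT-TV in wild type against 93.6% ± 11.4 in the knockout. The same slope was 36.5% ± 5.87 and 41.1% ± 11.7 in MT-TF and 13.7% ± 0.476 and 16.3% ± 1.05 in MT-TL1. The light-strand bases in these slopes are G or T, which DMS does not report. In wild type they averaged 0.882% in MT-TF, 0.827% in MT-TV and 0.688% in MT-TL1. Light-strand A and C averaged 0.260%, 0.403% and 0.935% in the same order. Opposite position 9 of MT-TV the light strand read 22.6% and 20.9% in wild type against 37.5% and 33.8% in the knockout. Its part in the heavy-strand values of MT-TV was not tested.

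By the distance between the 4 uncentred library means (log2 scale), the 2 of the other 36 genes with levels most like MT-TF were MT-TE (glutamate tRNA, distance 0.16) and MT-TL1 (0.42). For MT-TV they were MT-TN (asparagine tRNA, 0.05) and MT-TP (proline tRNA, 0.16), and for MT-TL1 they were MT-TE (0.31) and MT-TM (0.33). MT-TE, MT-TN and MT-TP are read from the light strand.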

How the data were processed

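The data are DMS mismatch fractions at 16500 positions in each of 8 files, 1 per strand and library. Per the file headers, each row gives a fraction of mismatches, another of mismatches with deletions, and the base. The submitters' processing notes name cutadapt and Bowtie2. Their settings, the build and any coverage minimum are not given in the sources used here, and no counts come with the fractions, so depth and counting error are unknown. Per the labels' protocols, library products of about 300 nt were selected on a gel. Mismatch fractions were used as deposited. MT-TF spans positions 577 to 647, MT-TV 1602 to 1670 and MT-TL1 3229 to 3303. Gene names came from the RefSeq table of GRCh38.p14, with its numbering lowered by 1 past position 3106: MT-TL1 then had 7 of 7 acceptor pairs, against 3 of 7 without the shift. Cloverleaf arms and native sites were placed from general knowledge and pairing was checked in the sequence.

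Values were taken as log2(fraction + 0.001), centred on the library median of the strand's tested positions, and fitted with limma 3.58.1 (R 4.3.3; lmFit, eBayes with trend, two-sided, Benjamini-Hochberg over 9898 positions or 37 genes), after a test on simulated data. For single values per library an exact permutation test, two-sided, was used. Members, lists and tests were chosen with earlier results of these data known. The rule for named bases took the native sites, the anticodon, any G or T with a mean above 5%, the 3 highest in wild type, and the 2 largest centred rises and falls among calls. It also took the 2 genes most like each tRNA. Alternatives covered centring, quantile normalization, the replicate block, pseudocount, limits, deletions, native sites and each library left out.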

Additional observations from a re-analysis of the deposited data

How the results depend on the processing

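Without centring, the mean log2 change turned from a rise to a fall in all 3 tRNAs, to -0.18 in MT-TF, -0.15 in MT-TV and -0.38 in MT-TL1, and the called bases went to 19 in MT-TF and 14 in MT-TV. Single bases that reversed without centring were MT-TF positions 60 (-0.0623), 47 (-0.0262), 36 (-0.19) and 37 (-0.30) and MT-TL1 positions 58 (-0.19), 37 (-0.46) and 38 (-0.21). The ratio of A and C to G and T in MT-TF, a log2 difference of 0.0225, became -0.0439 with medians in place of means, and ran from -0.0100 to 0.0551 with each library left out. In MT-TV the same ratio became 0.0778 with natively modified sites kept. With each library left out, the mean log2 change ran from 0.44 to 0.45 in MT-TF, 0.46 to 0.51 in MT-TV and 0.19 to 0.31 in MT-TL1, where the call was lost without either knockout replicate (0.27 and 0.23). The called bases then ran from 31 to 33, 17 to 27 and 19 to 22, and the rise in loop minus stem from 0.18 to 0.20, 0.28 to 0.36 and 0.11 to 0.16. The change at MT-TL1 position 40 was called lower under all 14 alternatives. A pseudocount of 0.01 lowered the rise in loop minus stem to 0.10 in MT-TF, 0.17 in MT-TV and 0.03 in MT-TL1, and A alone to 0.21 in MT-TV and 0.09 in MT-TL1. MT-TL1 position 25, not called after centring, was called lower without centring (-0.79), with a pseudocount of 0.01 (-0.16), with a mean fraction of at least 0.01 (-0.18) and without wild-type replicate 1 (-0.24). The cause of these changes was not tested.

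With the replicate number as a block (replicate block), limma gave the same rise of loop minus stem. The rises were 0.19 in MT-TF, 0.32 in MT-TV and 0.13 in MT-TL1. They passed the threshold there (adjusted p = 0.00174, 0.000321 and 0.00216, limma), where the exact test cannot. This fit shared its variance over the 3 tRNAs, which were read in the same libraries, so these p-values add no replication. The block called 32, 22 and 22 bases in place of 35, 25 and 21. The numbers were not shown to pair the libraries: the differences between replicates 1 and 2 in the 2 groups correlated at -0.000754 over 9898 positions. Over the tested bases of MT-TF, MT-TV and MT-TL1 they correlated at -0.22, -0.18 and 0.20. No coverage was given with the fractions, so what depth limits is unknown.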

Other observations

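Deletions averaged above 0.5% of reads at 7 of the 215 bases of the 3 tRNAs. In MT-TF these were positions 14, 58 and 65, in MT-TV position 33, the middle base of the anticodon, and in MT-TL1 positions 34, 41 and 69. Position 33 of MT-TV had deletions of 0.958% and 1.12% in wild type against 1.01% and 1.25% in the knockout, which overlap. In MT-TL1, position 69 of the acceptor stem had 0.692% and 0.728% in wild type against 0.336% and 0.378% in the knockout, and position 34 of the anticodon loop 1.14% and 1.26% against 0.760% and 0.760%. Both were lower in both knockout libraries, and the mismatch fractions of the same bases were lower too. Position 41 of MT-TL1, where the mismatch fraction rose, had 0.693% and 0.683% against 0.739% and 0.718%.

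A minimum free energy fold of each sequence alone (RNAfold 2.7.2) shared 14 of 18 cloverleaf pairs in MT-TF, 8 of 19 in MT-TV and 12 of 19 in MT-TL1. The fold that left out most of the MT-TV cloverleaf had an energy of -12.9 kcal/mol. The comparison of paired with other bases in all 3 tRNAs rests on the cloverleaf, not on these folds.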
